A study of Mus musculus with 6 samples.

Results

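The mouse Cyp4a genes encode cytochrome P450 enzymes that hydroxylate fatty acids at or next to the terminal carbon, the first step of omega oxidation. They were taken from the liver table by symbol (Cyp4a10, Cyp4a12a, Cyp4a12b, Cyp4a14, Cyp4a31 and Cyp4a32), and all 6 have a row among its 15092 genes. All 6 also passed the filter on low counts, which left 13816 genes for testing. The 6 samples are liver RNA from C57BL/6J mice, 3 labelled CRY1 KO (loss of the circadian repressor gene Cry1) and 3 labelled WT. No treatment is listed for either group, every title carries an unexplained prefix NC, and the labels give no age, sex, feeding state, time of day, knockout allele or statement that replicates were separate animals. P-values here therefore rest on sample-to-sample spread alone, and that spread may be technical.

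The enzymes sit in the endoplasmic reticulum and take electrons from the reductase POR. Their products are oxidised on to dicarboxylic acids, which peroxisomes shorten, and they also include the vasoactive lipid 20-HETE, made in mice mainly by Cyp4a12a. Cyp4a10 and Cyp4a14 are standard target genes of PPARα, the fatty acid receptor of the fasting liver, whereas Cyp4a12a is known as an androgen-dependent, male-predominant gene in mouse liver and kidney.

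The family is a cluster of duplicated genes on chromosome 4, and how alike the copies are bears on every value. Reads that match several copies may be divided between them, and how such reads were assigned is not given. Coding sequences were compared in GENCODE M21 transcripts (GRCm38). Cyp4a12a and Cyp4a12b were identical at 98.5% of aligned coding positions. Cyp4a10 matched Cyp4a32 at 97.2% and Cyp4a31 at 96.6%, and Cyp4a31 matched Cyp4a32 at 96.0%. Cyp4a14 stood apart, with between 75.0% and 75.9% identity to each of the others. Of all 100-base windows of the Cyp4a12a transcript, 35.8% occurred letter for letter in another member. The share was 36.2% for Cyp4a12b and 20.1% for Cyp4a32, whose transcript is nearly all coding (1527 of 1530 bases). It was 12.7% for Cyp4a10, 8.22% for Cyp4a31 and 0% for Cyp4a14. The estimates for Cyp4a12a against Cyp4a12b, and those within the Cyp4a10, Cyp4a31 and Cyp4a32 group, are uncertain for that reason, while that of Cyp4a14 is not affected by exact windows of this length.

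The first 90 coding bases, read 5′ to 3′ from the ATG on the coding strand, show both degrees of likeness. Capitals mark bases that differ from Cyp4a10 in the first 4 lines, and from Cyp4a12a in the last line, where there are none.
Cyp4a10: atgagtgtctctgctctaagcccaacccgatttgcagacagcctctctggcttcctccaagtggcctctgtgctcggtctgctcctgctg
Cyp4a31: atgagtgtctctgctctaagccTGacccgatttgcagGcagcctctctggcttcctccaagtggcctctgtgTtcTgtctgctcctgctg
Cyp4a32: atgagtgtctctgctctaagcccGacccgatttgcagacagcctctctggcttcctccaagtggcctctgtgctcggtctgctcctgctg
Cyp4a14: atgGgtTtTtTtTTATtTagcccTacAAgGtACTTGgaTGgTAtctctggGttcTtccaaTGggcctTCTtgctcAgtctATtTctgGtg
Cyp4a12a: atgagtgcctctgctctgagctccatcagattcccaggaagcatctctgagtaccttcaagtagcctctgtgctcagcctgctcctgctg
Cyp4a12b: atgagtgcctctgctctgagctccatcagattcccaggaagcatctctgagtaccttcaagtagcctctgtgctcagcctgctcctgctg

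A 60-base coding window was also taken per group of close copies, where the differences from the first gene, summed over the group, were most. For Cyp4a12b it lies at coding bases 624 to 683, with 4 differences from Cyp4a12a in capitals, and for the other group at 214 to 273, with 3 differences of Cyp4a31 and 9 of Cyp4a32 from Cyp4a10.
Cyp4a12a: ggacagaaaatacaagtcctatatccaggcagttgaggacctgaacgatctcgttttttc
Cyp4a12b: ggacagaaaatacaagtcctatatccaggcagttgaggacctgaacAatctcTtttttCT
Cyp4a10: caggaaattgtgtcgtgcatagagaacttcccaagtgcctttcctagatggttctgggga
Cyp4a31: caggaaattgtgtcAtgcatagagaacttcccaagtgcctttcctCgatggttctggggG
Cyp4a32: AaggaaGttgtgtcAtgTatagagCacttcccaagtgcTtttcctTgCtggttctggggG

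**Figure D1:**
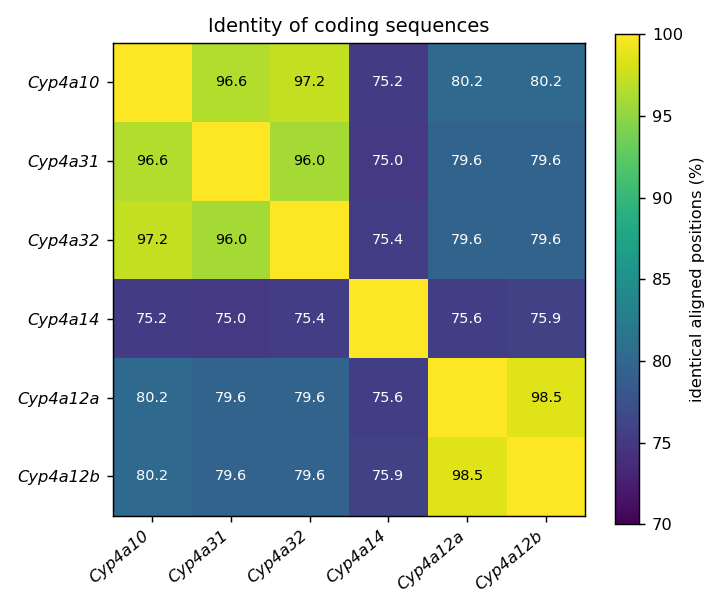
Percent of identical aligned positions between the coding sequences of each pair of Cyp4a genes, rows and columns in the same order. The Cyp4a10, Cyp4a31 and Cyp4a32 block lies between 96.0% and 97.2%, the Cyp4a12 pair at 98.5%, and Cyp4a14 at no more than 75.9% to any other member.

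Library totals ran from 79708703 to 87480152 estimated counts in the libraries labelled CRY1 KO and from 83941470 to 91316332 in WT. Cry1 itself, a gene-level value, stood at 6.95, 6.41 and 5.22 CPM in CRY1 KO 1, 2 and 3 and at 4.8, 6.89 and 7.24 CPM in WT 1, 2 and 3 (log2 difference -0.03, SE 0.19, edgeR quasi-likelihood adjusted p = 0.954). CPM is edgeR's count unit scaled to library size, here by TMM. The value does not check the labels, and each direction below compares the 3 libraries carrying the label CRY1 KO with the 3 WT libraries. The summed level of 14 hepatocyte markers was between 115700 and 122000 CPM in CRY1 KO and between 107200 and 112800 CPM in WT. Alb, the most abundant of them, averaged 56640 ± 5310 CPM in CRY1 KO and 50330 ± 4385 CPM in WT (SD), and its groups overlapped. Of the 14 markers 5 had positive and 9 negative log2 differences, with a median of -0.06, so the sums do not speak for most markers. Of 8 kidney tubule markers, Umod, Slc34a1, Kap, Slc12a1, Aqp2 and Cdh16 had no row among the genes analysed here. The others, Slc12a3 and Lrp2, summed to between 0.728 and 2.34 CPM in CRY1 KO and between 0.229 and 1.35 CPM in WT. The 4 Y-linked genes Ddx3y, Uty, Eif2s3y and Kdm5d were present in each library, at 9.10 CPM or more. WT 1 stood apart in blood and macrophage markers, with 7 red cell markers summing to between 581.3 and 734.9 CPM in CRY1 KO and to 2979, 1024 and 654.4 CPM in WT 1, 2 and 3. The 12 Kupffer cell markers summed to between 267.4 and 273.0 CPM in CRY1 KO and to 727.4, 467.4 and 288.2 CPM in WT 1, 2 and 3. In bulk RNA fewer cells of a type and less RNA per cell cannot be told apart.

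None of the 6 Cyp4a genes passed the edgeR quasi-likelihood test between libraries labelled CRY1 KO and WT at an adjusted p of 0.05 (Benjamini-Hochberg, all tested genes). Over all 13816 genes 235 passed, or 1.7%, of which 146 were higher (1.06%) and 89 lower (0.644%) in CRY1 KO. Over all genes 2860 had an unadjusted p under 0.05, while 0 of the 6 members had one. The members' log2 differences were all positive, between 0.30 and 0.74, with a median of 0.45, against a median of -0.02 over all tested genes, of which 47.3% were positive. Of the members 0 had groups that did not overlap, where 27.3% of tested genes did. DESeq2, which passed 9.29% of genes, and limma-voom, which passed 1.48%, called 0 members as well. At an unadjusted p under 0.05 DESeq2 had 2 members, Cyp4a12b and Cyp4a31, where 3012 of all 13816 genes had one. By limma-voom 0 members and 2848 of all genes did.

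Cyp4a14, a PPARα-responsive hydroxylase and the member least like the rest in sequence, varied most. It stood at 39.7, 6.82 and 192 CPM in CRY1 KO 1, 2 and 3 and at 45.3, 34.2 and 88.6 CPM in WT 1, 2 and 3. CRY1 KO 2 was the lowest and CRY1 KO 3 the highest of the 6 libraries, so the WT range lay inside that of CRY1 KO. The means were 79.5 ± 98.8 CPM in CRY1 KO and 56.0 ± 28.7 CPM in WT (SD, n = 3 each). On the log2 scale CRY1 KO minus WT came to 0.50 with an SE of 1.23 (edgeR adjusted p = 0.854). The limma-voom 95% interval ran from -3.92 to 3.0 and included 0. The sign of the difference turned with single libraries: without CRY1 KO 3 it was -1.26, and without CRY1 KO 2 it was 1.05. By limma-voom, which averages log values, it was -0.46 with all libraries.

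Cyp4a10, the other classic PPARα target of the family, followed the same libraries over a smaller range. It stood at 137, 51.1 and 265 CPM in CRY1 KO 1, 2 and 3 and at 87.9, 87.9 and 125 CPM in WT 1, 2 and 3. CRY1 KO 2 again lay below each WT library, and CRY1 KO 1 and CRY1 KO 3 above each. The log2 difference was 0.59 (SE 0.61, edgeR adjusted p = 0.634), with a limma-voom 95% interval from -1.24 to 1.87. Without CRY1 KO 3 the difference was -0.08, and without CRY1 KO 2 it was 1.01 (adjusted p = 0.258).

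Cyp4a31 and Cyp4a32 are close copies of Cyp4a10, and their values share its uncertainty. Cyp4a31, the least abundant member, stood at 17.4, 5.83 and 18.1 CPM in CRY1 KO 1, 2 and 3 and at 8.06, 8.24 and 8.47 CPM in WT 1, 2 and 3. The WT libraries lay within a 1.05-fold range, with CRY1 KO 2 below them and the other CRY1 KO libraries above. The log2 difference of Cyp4a31 was 0.74 (SE 0.42, edgeR adjusted p = 0.369). It is the only member whose call depended on a library: without CRY1 KO 2 the difference was 1.11 with an edgeR adjusted p of 0.0309. Cyp4a32 stood at 39.7, 18.8 and 39.6 CPM in CRY1 KO 1, 2 and 3 and at 22.5, 22.3 and 30.0 CPM in WT 1, 2 and 3. Its log2 difference was 0.39 (SE 0.30, edgeR adjusted p = 0.511), and 0.67 without CRY1 KO 2 (adjusted p = 0.160). A sum over Cyp4a10, Cyp4a31 and Cyp4a32 does not depend on how reads were divided among these copies. It would change if shared reads were dropped or counted more than once, which is not known. The summed level was 194, 75.7 and 323 CPM in CRY1 KO 1, 2 and 3 and 119, 118 and 163 CPM in WT 1, 2 and 3. The sum thus showed the same low CRY1 KO 2 and high CRY1 KO 3, with a log2 ratio of means of 0.57.

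The Cyp4a12 pair had another order of libraries. Cyp4a12a stood at 535, 438 and 338 CPM in CRY1 KO 1, 2 and 3 and at 462, 301 and 300.3 CPM in WT 1, 2 and 3. All 3 CRY1 KO libraries lay above WT 2 and WT 3, and WT 1 lay within the CRY1 KO range. The means were 437 ± 98.5 CPM in CRY1 KO and 354 ± 93.1 CPM in WT (SD, n = 3 each). On the log2 scale this was 0.30 with an SE of 0.22 (edgeR adjusted p = 0.479). Cyp4a12b stood at 210.1, 199 and 168 CPM in CRY1 KO 1, 2 and 3 and at 188, 145 and 119 CPM in WT 1, 2 and 3. Again WT 1 was the WT library that overlapped CRY1 KO, and it was above CRY1 KO 3 only. The log2 difference of Cyp4a12b was 0.35 (SE 0.17, edgeR adjusted p = 0.277), the smallest adjusted p of the family, with a limma-voom 95% interval from -0.02 to 0.76. Without WT 1 the differences were 0.54 for both genes, with edgeR adjusted p = 0.141 for Cyp4a12a and 0.0633 for Cyp4a12b. WT 1 is also the library with the high red cell and Kupffer markers given above, and their part in the result was not tested. Summed, the pair stood at 745, 637 and 506 CPM in CRY1 KO 1, 2 and 3 and at 649, 446 and 419 CPM in WT 1, 2 and 3.

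Exact two-sided permutation tests of the mean CPM, 6 in all, gave p between 0.2 for Cyp4a12b and 0.9 for Cyp4a14, where 3 against 3 libraries cannot go below 0.1. All members together took 0.0964%, 0.0669% and 0.109% of the counts in CRY1 KO 1, 2 and 3 and 0.0766%, 0.0600% and 0.0727% in WT 1, 2 and 3. The groups overlapped here too, since CRY1 KO 2 lay below WT 1 and WT 3. Cyp4a14 made up 0.948% of the family's counts in CRY1 KO 2 and 18.8% in CRY1 KO 3, against 5.57%, 5.72% and 13.2% in WT 1, 2 and 3.

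**Figure D2:**
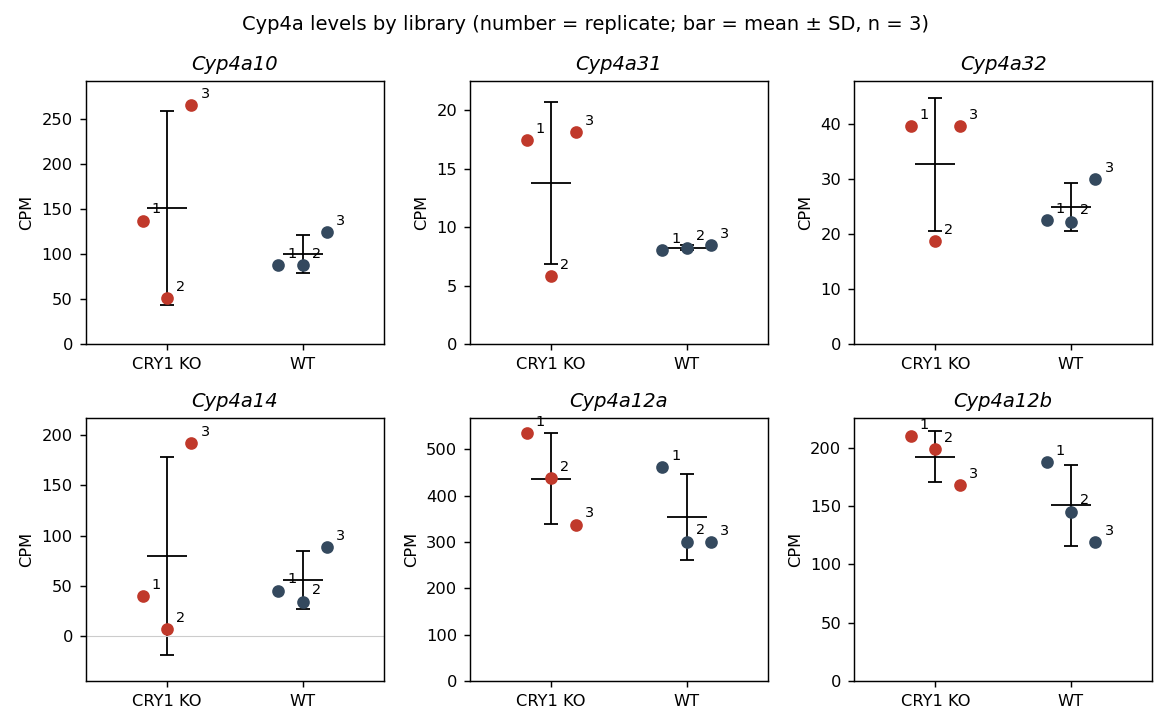
Level of each Cyp4a gene in CPM (vertical axis, linear) in the 3 CRY1 KO (red, left) and 3 WT (blue, right) libraries, with replicate numbers and mean ± SD. Cyp4a14 ranges from 6.82 to 192 CPM within CRY1 KO, while Cyp4a12b stays between 168 and 210.1 CPM there, and in each panel the groups overlap.

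**Figure D3:**
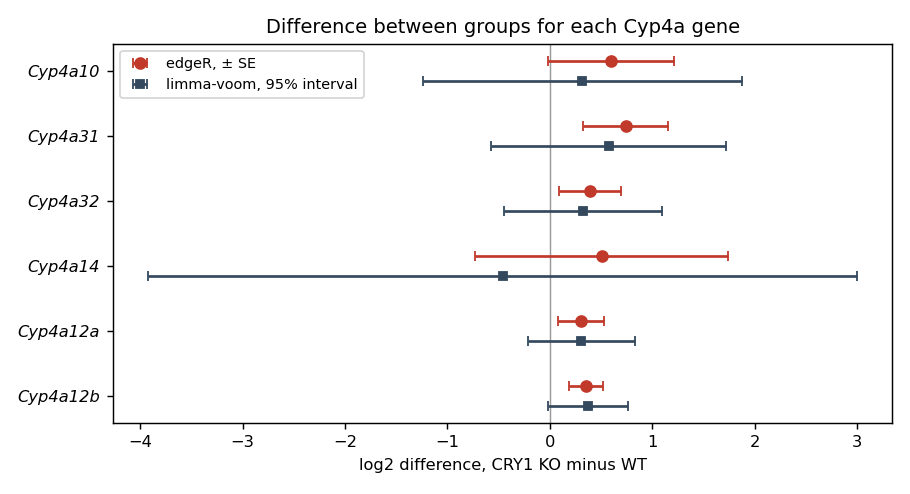
Log2 difference of each Cyp4a gene, CRY1 KO minus WT, by edgeR with its SE (red circles) and by limma-voom with a 95% interval (blue squares). Each interval includes 0, from the narrow one of Cyp4a12b (-0.02 to 0.76) to that of Cyp4a14 (-3.92 to 3.0), whose estimates have opposite signs under the tools.

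Levels were set per kilobase of transcript (GENCODE M21) to compare genes, though the lengths over which the counts were taken are not given. Cyp4a12a was the most abundant member on this scale, at 180.3 ± 40.7 CPM per kilobase in CRY1 KO and 146 ± 38.4 in WT (SD, n = 3 each). Cyp4a12b followed at 80.4 ± 9.07 in CRY1 KO and 62.9 ± 14.5 in WT, and Cyp4a10 at 71.7 ± 51.1 in CRY1 KO and 47.5 ± 10.1 in WT. Those genes overlapped in both groups and are not separated beyond their spread. Cyp4a14 had 31.9 ± 39.6 CPM per kilobase in CRY1 KO and 22.5 ± 11.5 in WT, overlapping Cyp4a10 among CRY1 KO libraries but not among WT libraries. Cyp4a32 had 21.4 ± 7.88 CPM per kilobase in CRY1 KO and 16.3 ± 2.87 in WT, within the range of Cyp4a14 in each group. The Cyp4a32 transcript used has 1530 bases, nearly all coding, where those of the other members have 2109 to 2509, so its value is less comparable. Cyp4a31 was last at 5.5 ± 2.75 in CRY1 KO and 3.29 ± 0.0816 in WT, below each library's Cyp4a32. The order of the means was the same per kilobase of coding sequence. In CRY1 KO 3 alone Cyp4a10 (126 CPM per kilobase) and Cyp4a14 (76.9) both exceeded Cyp4a12b (70.2).

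The spread within groups, measured as the SD of log2 CPM over 3 libraries, set Cyp4a14 and Cyp4a10 near the top of all genes. Cyp4a14 had an SD of 2.41 in CRY1 KO and 0.70 in WT, where the median gene had 0.124 in CRY1 KO and 0.175 in WT over 11437 tested genes with a mean of at least 1 CPM. It ranked 12 from the top in CRY1 KO and 450 from the top in WT. Cyp4a10 had an SD of 1.20 in CRY1 KO and 0.29 in WT and ranked 40 from the top in CRY1 KO and 2818 in WT. Cyp4a31 had 0.93 in CRY1 KO and 0.04 in WT, and Cyp4a32 had 0.62 in CRY1 KO and 0.24 in WT. The Cyp4a12 pair did not share this, with 0.33 in CRY1 KO and 0.36 in WT for Cyp4a12a, and 0.17 in CRY1 KO and 0.33 in WT for Cyp4a12b. So 4 of 6 members were more variable in CRY1 KO than in WT, where 34.3% of genes were. The 4 are not independent: Cyp4a10, Cyp4a31 and Cyp4a32 may share reads, and CRY1 KO 2 was the lowest CRY1 KO library for each. With 3 libraries a group the difference in spread was not tested.

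**Figure D4:**
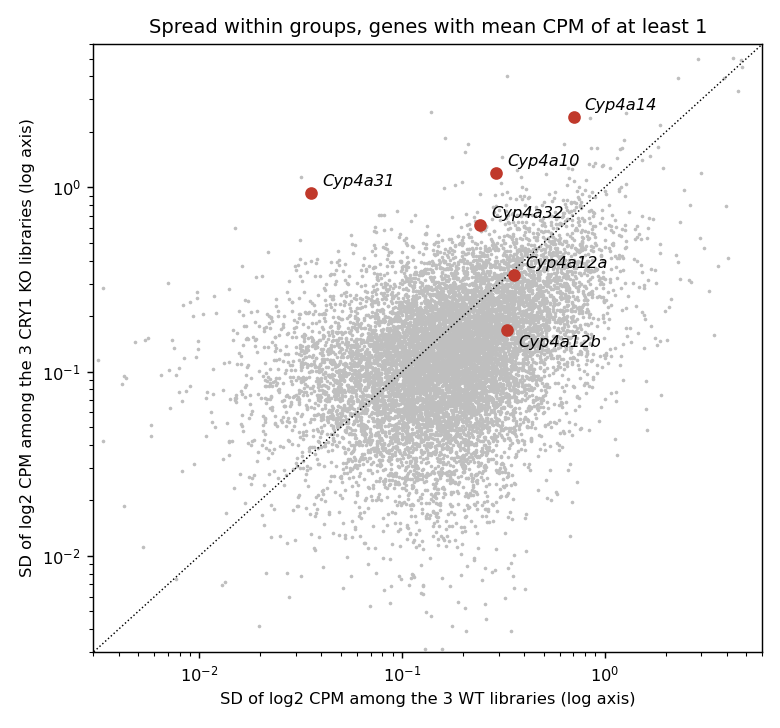
SD of log2 CPM among the 3 CRY1 KO libraries (vertical, log axis) against that among the 3 WT libraries (horizontal, log axis) for genes with a mean of at least 1 CPM (grey) and the Cyp4a genes (red), with the line of equal spread dotted. Cyp4a14, Cyp4a10, Cyp4a31 and Cyp4a32 lie above the line, Cyp4a14 at 2.41 in CRY1 KO and 0.70 in WT, while Cyp4a12a and Cyp4a12b lie just under or below it.

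Across the 6 libraries the Cyp4a12 pair had one course and the other members another. Pearson's r of log2 CPM was 0.92 between Cyp4a10 and Cyp4a14, 0.91 between Cyp4a10 and Cyp4a32, 0.89 between Cyp4a10 and Cyp4a31, and 0.95 between Cyp4a31 and Cyp4a32, given as a description over libraries that share the same groups. Cyp4a14 had an r of 0.68 with Cyp4a31 and 0.75 with Cyp4a32. Cyp4a12a and Cyp4a12b had an r of 0.90 with each other. Between the Cyp4a12 pair and the other 4 members r lay between -0.45 and 0.19. Cyp4a14 shares no exact 100-base window with Cyp4a10, whereas the Cyp4a12 genes share many, and Cyp4a10, Cyp4a31 and Cyp4a32 share some. The part of shared reads in the r within either group of close copies was not tested. The ratio of Cyp4a12a to Cyp4a12b was between 2.01 and 2.54 in CRY1 KO and between 2.07 and 2.53 in WT. That of Cyp4a12a to Cyp4a14 was between 1.76 and 64.2 in CRY1 KO and between 3.39 and 10.2 in WT.

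Among non-members, the genes with the most similar course over the 6 libraries to Cyp4a14 were Rdh16 (a retinol dehydrogenase gene, r = 0.987), Zfp628 (0.986) and Trib3 (a pseudokinase of the stress response, 0.972). Their ranges were narrow beside that of Cyp4a14: Rdh16 stood at 55.3, 44.0 and 75.1 CPM in CRY1 KO 1, 2 and 3 and at 59.5, 53.4 and 64.1 CPM in WT 1, 2 and 3. For Cyp4a10 they were the kinase gene Map3k8 (0.994), Ttc3 (0.985) and the sialyltransferase gene St6gal1 (0.978). For Cyp4a31 they were Mapk8ip3 (0.991), Tgfbr3l (0.990) and Fam102b (0.984), and for Cyp4a32 Mtmr12 (0.990), Serpinb1a (0.981) and Tgfbr3l (0.981). For Cyp4a12a they were Lars2, a mitochondrial leucyl-tRNA synthetase gene (0.995), Fggy (0.993) and Pdss2 (0.987), and for Cyp4a12b Cmc4, the kynureninase gene Kynu (both 0.996) and Obi1 (0.988). With 6 libraries between 32 and 135 of 11431 genes had an r above 0.9 with a given member, so a high r does not set a gene apart.

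Most other PPARα targets had narrow ranges within CRY1 KO. Of 41 tested targets 3 rose and 0 fell, against 1.06% of all genes rising, and the median log2 difference of the list was 0.17. The called genes were Fitm2, a lipid droplet gene (48.3, 48.7 and 48.6 CPM in CRY1 KO 1, 2 and 3 and 28.8, 31.2 and 32.5 CPM in WT 1, 2 and 3), Pex11a, a gene of peroxisome division (log2 0.77, SE 0.10, edgeR adjusted p = 0.0174), and Cpt1a, which encodes the carnitine palmitoyltransferase of mitochondria (log2 0.71, adjusted p = 0.0365). Fitm2 differed by 1.01-fold between its highest and lowest CRY1 KO library, where Cyp4a14 differed by 28.1-fold and Cyp4a10 by 5.19-fold. Over the 41 targets the median of that ratio was 1.14, and over all tested genes 1.21. Txnip, Ehhadh and Acsl1 were among the next by p, with log2 differences of 2.25, 0.42 and 0.43, and did not pass. The 3 calls depended on single libraries, as did the calls over all genes, 235 with all libraries. Without CRY1 KO 1, CRY1 KO 2, CRY1 KO 3 or WT 2, 0 targets passed, and 40, 20, 30 and 17 of all genes did. Without WT 1, 4 targets and 565 of all genes passed, and without WT 3, 7 targets and 844 genes. With all libraries DESeq2 called 11 targets, where it passed 9.29% of all genes. Without scaling beyond library totals edgeR called 1 target and 113 of all genes. Counts given below for other lists without 1 library stand beside the same totals.

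The order of Cyp4a14 within CRY1 KO, with replicate 2 lowest and replicate 3 highest, was found in 12 of the 41 targets, or 29.3%, and in 17.0% of all tested genes. Among them were the acyl-CoA thioesterase genes Acot1 to Acot4 and Vnn1, a pantetheinase gene, which were picked out after their values were seen. Acot4 stood at 26.5, 18.7 and 38.0 CPM in CRY1 KO 1, 2 and 3 and at 11.9, 15.5 and 17.3 CPM in WT 1, 2 and 3, and did not pass the test (log2 0.90, edgeR adjusted p = 0.138). Acot3 stood at 0.768, 0.689 and 3.04 CPM in CRY1 KO and at 0.105, 0.749 and 0.542 CPM in WT. The 5 genes spanned between 1.56-fold and 4.42-fold within CRY1 KO, less than Cyp4a10 and Cyp4a14.

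**Figure D5:**
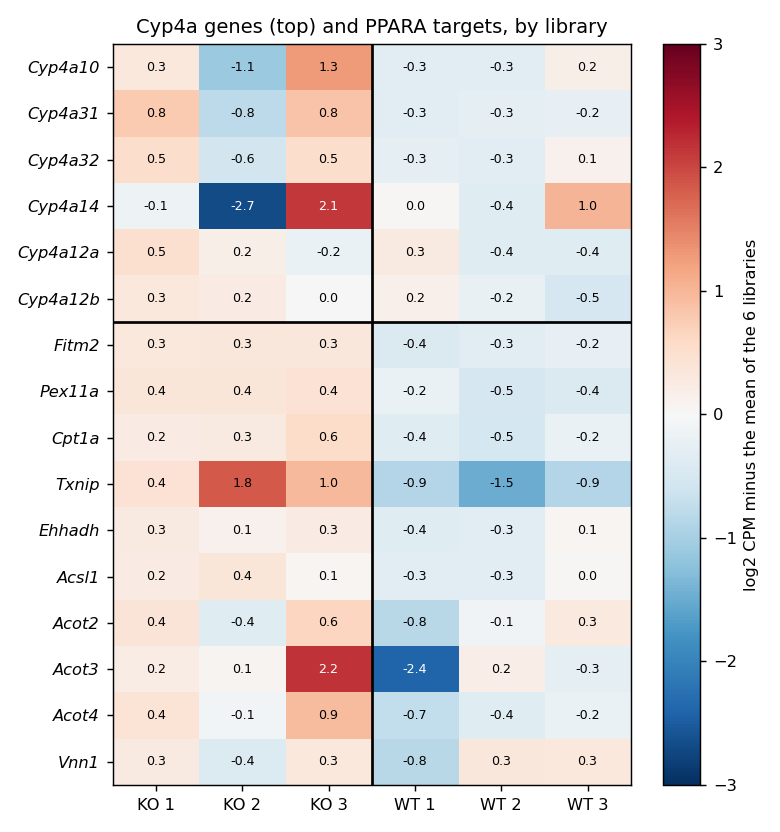
Log2 CPM of the Cyp4a genes (above the black line) and of PPARα targets (below it) minus each gene's mean over the 6 libraries, with CRY1 KO libraries left of the WT libraries. The targets are Fitm2, Pex11a, Cpt1a, Txnip, Ehhadh and Acsl1, among those with the smallest p, plus Acot2, Acot3, Acot4 and Vnn1 chosen for their order within CRY1 KO. Cyp4a14 falls to -2.7 in CRY1 KO 2 and stands at 2.1 in CRY1 KO 3, while Fitm2, Pex11a and Cpt1a are higher in each CRY1 KO library than in each WT library.

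The receptor itself, Ppara, stood at 51.5, 39.2 and 54.3 CPM in CRY1 KO 1, 2 and 3 and at 20.5, 19.6 and 43.6 CPM in WT 1, 2 and 3 (log2 0.79, SE 0.35, edgeR adjusted p = 0.271). CRY1 KO 2 was the lowest CRY1 KO library for the receptor as for Cyp4a14, and WT 3 the highest WT library. The order within CRY1 KO that they share was that of 17.0% of all tested genes. Over the 6 libraries Ppara had an r of only 0.27 with Cyp4a14. Within CRY1 KO Ppara spanned 1.38-fold, where Cyp4a14 spanned 28.1-fold. Of 18 genes of PPARα and its partners, Hnf4a, a hepatocyte nuclear receptor gene, rose (log2 0.73, edgeR adjusted p = 0.0389) and 17 did not pass. Without CRY1 KO 1, CRY1 KO 2, CRY1 KO 3 or WT 2 the call of Hnf4a was lost, with adjusted p between 0.0890 and 0.168, and 3 genes of the list rose without WT 1 or WT 3. DESeq2 called 5 genes of the list higher and 1 lower. Over all tested genes edgeR called 1.06% higher, and DESeq2 passed 9.29% in either direction. Sirt1, Rxrg, Ppargc1b and Fgf21, next by p, had differences of 0.40, -0.74, 0.93 and 1.56. Lpin1, whose product acts as a coactivator of PPARα, stood at 320.2, 585.3 and 774.9 CPM in CRY1 KO 1, 2 and 3 and at 417.9, 27.9 and 22.6 CPM in WT 1, 2 and 3, an order unlike that of Cyp4a14.

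Among the electron donors of P450 enzymes Por rose, at 318.6, 342.8 and 376 CPM in CRY1 KO 1, 2 and 3 and 247, 160.6 and 178 CPM in WT 1, 2 and 3 (log2 0.82, edgeR adjusted p = 0.0485). The call of Por held without WT 1 and was lost without CRY1 KO 1, CRY1 KO 2, CRY1 KO 3, WT 2 or WT 3, with adjusted p between 0.0607 and 0.185. With RLE size factors and all libraries the adjusted p was 0.0503 and the call was lost too. The other 4 (Cyb5r3, Pgrmc1, Cyb5a and Cyb5b) did not pass, and over all tested genes 1.06% rose. Downstream of the hydroxylases, 0 of 20 tested genes of fatty alcohol and dicarboxylate oxidation passed, with a median of 0.05. Without WT 3 edgeR called 4 higher, and DESeq2, which passed 9.29% of all tested genes, called 5 higher and 2 lower with all libraries. Nearest to the threshold was Abcd3, a peroxisomal importer of long-chain and dicarboxylic acids (618, 581 and 562 CPM in CRY1 KO 1, 2 and 3 and 447, 435 and 459 CPM in WT 1, 2 and 3, edgeR adjusted p = 0.0614). The alcohol dehydrogenase gene Adh4 had a difference of -0.37 (adjusted p = 0.101), and the peroxisomal gene Ehhadh of 0.42.

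Of the 9 tested Cyp4 genes outside the family, 0 passed, with a median of -0.16 and 6 negative differences, and DESeq2 called 1 lower. Cyp4f17 came nearest, at 11.8, 12 and 8.5 CPM in CRY1 KO 1, 2 and 3 and 14.7, 16.8 and 17.9 CPM in WT 1, 2 and 3 (log2 -0.61, SE 0.15, edgeR adjusted p = 0.0770). Cyp4f14, a leukotriene-hydroxylating P450, had -0.22, Cyp4v3 0.35 and Cyp4f16 -0.66. In 2 of the 9, Cyp4f17 and Cyp4f14, the groups did not overlap, against 27.3% of all tested genes and 0 of the 6 Cyp4a genes. The 13 tested genes that flank the Cyp4a cluster had 0 calls and a median of 0.13, and 1 was called higher by DESeq2. Mknk1 (0.41, adjusted p = 0.0798), Cmpk1 (0.20), Stil (2.0, at 0.411 CPM or less in each library) and Faah (0.16), the gene of the hydrolase that degrades anandamide, came first by p.

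Since Cyp4a12a is known as a male-predominant gene, sex-biased genes and genes of growth hormone signalling were set beside the Cyp4a12 pair. Of 22 tested male-biased genes 0 passed, with a median of 0.04. Without WT 3 edgeR called 2 higher, and DESeq2, which passed 9.29% of all tested genes, called 3 higher with all libraries. Those first by p were Slco1a1 (0.51), Hsd3b5 (-0.37), Bcl6 (1.93) and Mup20 (0.87). Their median deviation from the 6-library mean was 0.13, 0.29 and -0.31 in CRY1 KO 1, 2 and 3 and 0.03, -0.04 and -0.19 in WT 1, 2 and 3, with CRY1 KO 3 lowest, as it is among CRY1 KO libraries for Cyp4a12a and Cyp4a12b. Against 1.06% of all tested genes, Cyp3a44, Fmo2 and Trim24 rose among 18 tested female-biased genes, and 15 did not pass. The number that rose was 2 without CRY1 KO 1, 1 without CRY1 KO 2, CRY1 KO 3 or WT 2, 4 without WT 1 and 3 without WT 3, where 2 fell. DESeq2 called 3 higher and 2 lower. Next by p were Cyp2c69 (-0.91), Cyp2c40 (-1.08), Cyp3a41b (1.20) and Acot3 (1.69). The median deviation of the list was 0.21, 0.10 and 0.60 in CRY1 KO 1, 2 and 3 and -0.08, -0.16 and -0.26 in WT 1, 2 and 3. Of 10 tested genes of growth hormone signalling 0 passed. Without WT 1 edgeR called 3 lower, as did DESeq2 with all libraries. The feedback inhibitor genes Cish, at 1.73, 8.58 and 8.12 CPM in CRY1 KO and 17.2, 62.2 and 46.1 CPM in WT, and Socs2 (-1.72) and Socs3 (-1.02) had groups that did not overlap, as did Igfals (-0.33). In all, 5 of the 10 genes had groups that did not overlap, against 27.3% of all tested genes.

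Of 18 tested clock genes 7 rose and 0 fell by edgeR, with a median of 1.26, where 1.06% of all tested genes rose. DESeq2, which passed 9.29% of all tested genes, called 12 higher and 2 lower. Unlike the Cyp4a genes they separated the groups, with 16 of 18 not overlapping, against 27.3% of all tested genes. The number that rose was 5 without CRY1 KO 1, 2 without CRY1 KO 2 or WT 2, 4 without CRY1 KO 3, 9 without WT 1 and 7 without WT 3. The list of fasting and feeding genes had a median of 0.48, with 12 positive and 3 negative differences. Of its 15 genes 1 rose, Scd1 (log2 1.25, edgeR adjusted p = 0.0190), where 1.06% of all tested genes rose. Its call was lost without CRY1 KO 1, CRY1 KO 3 or WT 2, and 5 genes of the list rose and 1 fell without WT 1, and 2 rose without WT 3. DESeq2 called 2 higher and 2 lower. Fgf21 (1.56) and Srebf1 (-1.04) were among the next by p. Cyp4a10 and Cyp4a14 are more abundant around the central vein, so zonation markers were also set beside them. Of 15 pericentral markers 0 passed, with a median of -0.25, Lect2 (-0.51), Lgr5 (-0.78) and Glul (-0.31) being among the first by p. Without WT 1 edgeR called 1 higher and 1 lower, without WT 3 it called 1 lower, and DESeq2 with all libraries called 1 higher and 5 lower. Of 14 periportal markers Etnppl rose (log2 1.21), also without each single library, 13 did not pass and the median was 0.23. Asl (0.58), Ass1 (0.48), Hsd17b13 (0.31) and Cyp2f2 (0.41) came next, and 3 markers rose without WT 1 and 2 without WT 3, where 1 fell. DESeq2 called 3 periportal markers higher. The summed pericentral level was 9189, 9055 and 9174 CPM in CRY1 KO 1, 2 and 3. In WT 1, 2 and 3 it was 9547, 9016 and 11380 CPM. Much of it was Cyp2e1, at 4983, 5230 and 5591 CPM in CRY1 KO 1, 2 and 3. In WT 1, 2 and 3 Cyp2e1 stood at 4748, 4942 and 7573 CPM. What part zonation has in the Cyp4a14 values was not tested.

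In the RefSeq promoter table (GRCm38) a window of 250 bases before to 50 after the start was at hand for 1 member, Cyp4a32. It held none of the motifs searched on both strands: the E-box CACGTG, present in 7.15% of 32851 promoters, the D-box TTANGTAA (2.32%), the ROR element TAGGTCA (2.61%), the PPAR element (0.0396%) or AGGTCA, which both of the last contain (16.3%). No match says only that these letters are not in this window.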

How the data were processed

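The authors deposited 1 table of whole numbers per gene for the 6 liver libraries, taken here as estimated counts from their values. HISAT2 2.2.1 (alignment), Trim Galore 0.6.7 (trimming), limma 3.42.2 and the assembler StringTie 2.1.7 are listed, with the build GRCm39 (mm39), per the submitters' processing notes. How they were run, the annotation, strand setting and read length are not given in the sources used. Per the labels' protocols a stranded Illumina mRNA kit was used.

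Groups and replicate numbers come from the sample titles. In edgeR 4.0.16 genes passed filterByExpr (at least 10 counts, total at least 15), were scaled by TMM and were compared with its robust quasi-likelihood test over 13816 genes. Checks used DESeq2 1.42.0, limma 3.58.1 (voom) and simulated data. Log2 CPM used a prior count of 2. The biological coefficient of variation was 0.211. Sequences were aligned with Biopython 1.88. Members and lists were chosen with earlier results of these data known. The genes named are all members, in each list the called genes and up to 4 others with the smallest p, and the 3 most similar genes per member, except that a few genes under this rule are not reported here. Lists of endothelial, stellate, bile duct and lymphoid markers had medians of 0.04, -0.12, 0.04 and -0.61, with 0, 0, 0 and 1 called genes.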

Additional observations from a re-analysis of the deposited data

How the results depend on the processing

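Over 13 alternatives per member the log2 difference ran from 0.13 to 0.54 for Cyp4a12a, 0.21 to 0.54 for Cyp4a12b, 0.50 to 1.11 for Cyp4a31 and 0.23 to 0.67 for Cyp4a32, always positive, and 0 members were called in 12 of them. Leaving out 1 library, members called ran from 0 to 1 (Cyp4a31 without CRY1 KO 2), genes called over all from 17 (without WT 2) to 844 (without WT 3), with 40, 20 and 30 without CRY1 KO 1, 2 and 3 and 565 without WT 1, Cyp4a10 from -0.084 to 1.01, Cyp4a14 from -1.26 to 1.05 and Cyp4a31 from 0.50 to 1.11. Fewer libraries entered these fits. Genes called over all were 1284 by DESeq2, 113 without scaling beyond library totals and 94 with the replicate number as a block, with 0 members in each. With the replicate block Por and Hnf4a lost their calls, 1 gene of growth hormone signalling was lower, and the difference of Cyp4a14 was -0.42, and by limma-voom -0.46. The cause was not tested.

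Same-numbered libraries had correlations of deviations of -0.07, -0.01 and 0.07 for numbers 1, 2 and 3, so the numbers were not taken as pairs, and not every library correlated best with its own number. The summed level of Cyp4a10, Cyp4a14, Cyp4a31 and Cyp4a32, a set chosen after seeing the data, had a log2 ratio of 0.55, from -0.26 to 0.98 over the alternatives. The sum of Cyp4a10, Cyp4a31 and Cyp4a32 ran from 0.02 to 0.96, that of the Cyp4a12 pair from 0.18 to 0.54, and that of all members from 0.29 to 0.53. Each member had at least 474 estimated counts in each library, but 1 unit of the table is not known to be 1 fragment.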
